A study of Mus musculus with 6 samples.

Results

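The interleukin-6 family and the colony-stimulating factors were followed through 10 genes, found by gene symbol in a table of 28212 genes, and all 10 passed the filter on low counts. They were 7 genes of secreted ligands (Il6, Il11, Lif, Clcf1, Csf1, Csf2 and Csf3) and 3 genes of signalling receptor chains (Il6st, Osmr and Lifr). Poly(A) RNA came from LD-1, a mouse cholangiocarcinoma (bile duct cancer) cell line. Of 6 libraries, 3 were labelled HGF and 3 Control, and the series asks how stimulation with HGF (hepatocyte growth factor, which activates the MET receptor) alters expression. The labels give neither dose, time nor vehicle, name both a cell line and mouse tumour tissue as the source, and leave it unsaid if replicates came from different cultures. The p-values therefore reflect only how far these 6 libraries scatter, which may be technical scatter. LD-1 is a single line, so the comparison covers that line alone.

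Cytokines of the interleukin-6 family bind a receptor complex that contains gp130, the product of Il6st, and signal through JAK kinases and STAT3. IL-6 and IL-11 first bind their own alpha receptors, whereas LIF joins gp130 to LIFR, and oncostatin M joins gp130 to OSMR. The colony-stimulating factors act on myeloid cells: M-CSF (Csf1) on macrophages, GM-CSF (Csf2) on macrophages and granulocytes, and G-CSF (Csf3) on neutrophils. Epithelial tumours are known sources of both groups.

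With HGF, 6 of the 7 ligand genes rose and all 3 receptor genes fell, and Il6 did not pass the test. A gene was called when its adjusted p was under 0.05 in edgeR's quasi-likelihood test with Benjamini-Hochberg adjustment over 17322 tested genes. Over all tested genes 38.5% were called, 19.1% higher and 19.3% lower. The rises ranged from 1.10-fold for Csf1 to 4.17-fold for Il11, and 2 members (Il11 and Csf3) rose at least 2-fold, a size reached by 3.38% of tested genes. The median log2 fold change was 0.64 over the members, 0.84 over the ligands and -0.60 over the receptors. It was -0.02 over all tested genes, and -0.13 when libraries were scaled by their totals alone. In FPKM, fragments per length of transcript and size of library, 8 of the 10 genes had groups that did not overlap, as did 53.5% of all tested genes.

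The ligand genes also shared a sequence feature that their choice as cytokine genes made likely. AU-rich elements in the 3′ untranslated region are bound by proteins that shorten or lengthen the life of an mRNA, and are a textbook property of cytokine transcripts. The heptamer TATTTAT, chosen after the expression values were seen, was searched on the transcript strand with overlapping matches counted. It occurred at least 1 time in all 7 ligand genes and had 0 matches in Il6st, Osmr and Lifr, whose regions held 5641, 1794 and 6320 bases in the GENCODE M21 transcript with the longest coding sequence. At least 1 TATTTAT was present in 26.9% of 13389 tested genes. The shorter ATTTA, which lies within the heptamer, did not separate ligands from receptors. It occurred 9, 4 and 11 times in Il6st, Osmr and Lifr, and 4 to 10 times in the 7 ligand genes. The densest sites of the 5 ligand genes with more than 1 TATTTAT show how the clusters differ. They are printed as DNA of GRCm38, on the gene's strand, with the heptamer in capitals.
Csf2: TATTTATTTATTTATTTATTTAT
Il11: TATTTATTTATTTAT
Clcf1: TATTTATTTATttggagatgtTATTTAT
Lif: TATTTATtactatgtccTATTTAT
Csf3: TATTTATctctatttaaTATTTAT
These stretches lie at chr11:54247328-54247350, chr7:4773505-4773519, chr19:4223405-4223432, chr11:4270480-4270503 and chr11:98702991-98703014 (minus strand for Csf2 and Il11, plus strand for the others). Csf2 carried 9 heptamers in 317 bases, 5 of them in the unbroken stretch shown. Il11 had 6 in 1194 bases, Lif 5 in 3180, Clcf1 4 in 922, Csf3 2 in 669, and Il6 and Csf1 1 each in 427 and 2111 bases. Thus 4 members had at least 3 heptamers, against 3.30% of tested genes. The number of heptamers did not order the rises, since Il11 rose most and Csf2, with the most sites, rose 1.79-fold. A match is a string of letters and not a measured binding site.

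Promoter windows from RefSeq (GRCm38.p6, 250 bases before to 50 after a start) were available for 8 of the 10 members, 10 windows in all, and the motifs were chosen after the expression values were seen. The letters TGANTCA, the AP-1 site bound by Fos and Jun proteins, occurred in 4 windows, those of Il6, Lif, Osmr and 1 of 2 windows of Il11. Of 32851 windows, 7.81% held them. Both strands were searched, and the motif reads the same on each. The 4 windows are shown 5′ to 3′ on the gene's strand with the AP-1 letters in capitals, because they include ligand genes that rose and a receptor gene that fell.
Il11: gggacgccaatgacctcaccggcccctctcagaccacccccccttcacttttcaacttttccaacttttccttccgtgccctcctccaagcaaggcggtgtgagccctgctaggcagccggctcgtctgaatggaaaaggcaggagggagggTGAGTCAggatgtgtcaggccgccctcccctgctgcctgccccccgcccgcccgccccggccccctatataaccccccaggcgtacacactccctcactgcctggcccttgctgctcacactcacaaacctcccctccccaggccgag
Lif: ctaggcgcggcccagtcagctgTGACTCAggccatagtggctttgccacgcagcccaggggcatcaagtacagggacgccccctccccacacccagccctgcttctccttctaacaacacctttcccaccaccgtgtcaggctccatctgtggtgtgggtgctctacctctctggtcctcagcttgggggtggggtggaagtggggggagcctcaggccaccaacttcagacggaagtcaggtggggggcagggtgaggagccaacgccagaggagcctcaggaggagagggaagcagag
Il6: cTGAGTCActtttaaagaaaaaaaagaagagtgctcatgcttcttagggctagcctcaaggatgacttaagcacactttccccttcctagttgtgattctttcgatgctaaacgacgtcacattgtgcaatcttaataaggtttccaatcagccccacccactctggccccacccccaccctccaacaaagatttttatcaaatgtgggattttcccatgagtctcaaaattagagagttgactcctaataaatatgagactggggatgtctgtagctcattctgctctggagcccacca
Osmr: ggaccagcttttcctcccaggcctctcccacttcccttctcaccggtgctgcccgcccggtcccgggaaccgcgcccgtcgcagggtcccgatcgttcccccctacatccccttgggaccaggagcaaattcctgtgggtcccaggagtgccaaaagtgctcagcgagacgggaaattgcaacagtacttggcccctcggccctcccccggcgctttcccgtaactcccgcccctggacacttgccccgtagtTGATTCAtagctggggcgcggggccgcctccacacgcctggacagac
The windows span chr7:4778092-4778391 on the minus strand, chr11:4257318-4257617 and chr5:30012864-30013163 on the plus strand and chr15:6874264-6874563 on the minus strand. The match began 98 bases upstream of the start in Il11, 228 in Lif and 249 in Il6, and 3 bases downstream in Osmr. The NF-kB motif, searched on both strands, occurred in the windows of Il6, 44 bases upstream, and Csf1, 154 bases upstream, and in 4.51% of all windows. The STAT motif TTCNNNGAA had 0 matches in the 10 windows and was present in 8.30% of all windows. The matches are descriptions of letters and do not show that a factor was bound.

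Il11 (ENSMUSG00000004371, chromosome 7, 4772373 to 4782857, minus strand), which encodes an interleukin known for roles in stromal and epithelial repair, changed most. Its FPKM was 2.91, 2.71 and 2.37 in HGF libraries 1 to 3 and 0.895, 0.638 and 0.506 in Control libraries 1 to 3. Every HGF library lay above every Control library. The means were 2.66 ± 0.271 and 0.680 ± 0.198 (SD, n = 3 each), and the log2 fold change was 2.06 ± 0.21 (SE), or 4.17-fold, with adjusted p = 1.41e-04 by edgeR's quasi-likelihood test. The deposited counts behind it were 434, 405 and 361 with HGF and 137, 97 and 68 in Control. Among all tested genes, Il11 moved from the 28.4th to the 47.4th percentile of FPKM.

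Lif (ENSMUSG00000034394, chromosome 11, 4257557 to 4272514, plus strand) encodes leukaemia inhibitory factor. Its FPKM was 14.1, 14.4 and 12.9 with HGF and 8.40, 7.94 and 7.43 in Control, with no overlap. The means of 13.8 ± 0.766 and 7.92 ± 0.483 corresponded to a log2 fold change of 0.90 ± 0.06, or 1.86-fold, with edgeR adjusted p = 2.07e-05. Clcf1 (ENSMUSG00000040663, chromosome 19, 4214238 to 4223490, plus strand), a ligand of the CNTF receptor complex, had an FPKM of 4.62, 5.43 and 4.48 with HGF. In Control it was 3.74, 3.76 and 3.21, below all 3 HGF libraries. The rise was 0.54 ± 0.10 on the log2 scale, or 1.45-fold, with edgeR adjusted p = 0.00294. Annotated genes AC109138.7 and Gm26115 overlap Clcf1, and their counts did not exceed 4 in any library.

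Il6 (ENSMUSG00000025746, chromosome 5, 30013114 to 30019981, plus strand), the founding member, was the lowest of the 10 genes in both groups. Its FPKM was 0.277, 0.522 and 0.383 with HGF and 0.279, 0.283 and 0.187 in Control. HGF library 1 lay below Control libraries 1 and 2, so the groups overlapped. The log2 fold change of 0.75 ± 0.34 did not pass the test (edgeR adjusted p = 0.114). Counts ran from 30 to 93, and at this depth the standard error allows neither a claim of change nor of stability.

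Osmr and Lifr, whose genes are neighbours on chromosome 15 with 215644 bases between them, fell. Lifr (ENSMUSG00000054263, 7090614 to 7197489, plus strand) had an FPKM of 1.94, 2.23 and 2.21 with HGF and 4.39, 4.38 and 4.52 in Control. All HGF libraries were below all Control libraries. The log2 fold change was -0.96 ± 0.07, so that Control was 1.95-fold higher, with edgeR adjusted p = 2.11e-05. Osmr (ENSMUSG00000022146, 6813577 to 6874969, minus strand) had an FPKM of 2.30, 2.23 and 2.46 with HGF and 3.81, 3.88 and 3.63 in Control. Its groups were also apart, and the log2 fold change was -0.60 ± 0.06 (edgeR adjusted p = 9.31e-05). Il6st (ENSMUSG00000021756, chromosome 13, 112464070 to 112510086, plus strand), the shared chain, was the most abundant of the receptor genes. Its FPKM was 10.1, 9.97 and 9.67 with HGF and 13.8, 13.3 and 12.4 in Control, without overlap. Its fall was the smallest of the 3, with a log2 fold change of -0.32 ± 0.05 (edgeR adjusted p = 8.20e-04).

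Within each library, receptor genes were also set against each other. The FPKM ratio of Lifr to Il6st was 0.192, 0.224 and 0.229 with HGF and 0.317, 0.328 and 0.365 in Control, and that of Osmr to Il6st was 0.228, 0.224 and 0.254 against 0.275, 0.291 and 0.293. The ratio of Lif to its receptor Lifr was 7.26, 6.45 and 5.86 with HGF and 1.91, 1.81 and 1.64 in Control. These ratios were chosen after the values were seen and are given as descriptions.

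**Figure D1:**
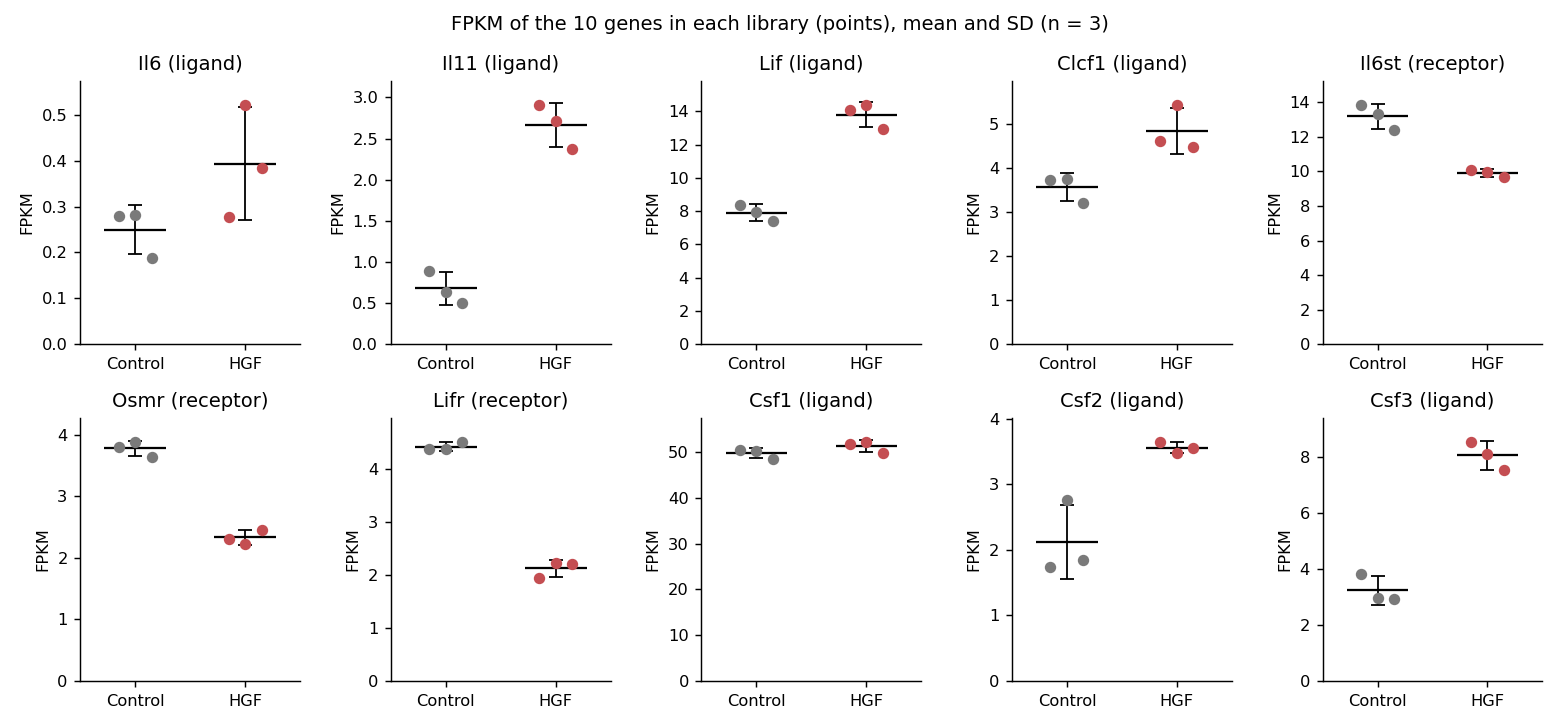
FPKM (y axis, from 0, with its own scale in each panel) of the 10 genes by group, with a point per library, the mean as a horizontal line and the SD as a bar (n = 3 per group). The groups are apart in 8 genes, and overlap for Il6 and Csf1.

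Csf3 (ENSMUSG00000038067, chromosome 11, 98701263 to 98703629, plus strand), the G-CSF gene, was the colony-stimulating factor with the largest rise. Its FPKM was 8.54, 8.11 and 7.52 with HGF and 3.83, 2.97 and 2.92 in Control, and each HGF library was above each Control library. The means were 8.05 ± 0.512 and 3.24 ± 0.513, and the log2 fold change was 1.41 ± 0.13, or 2.65-fold (edgeR adjusted p = 6.67e-05). Csf2 (ENSMUSG00000018916, chromosome 11, 54247271 to 54249667, minus strand), the GM-CSF gene, had an FPKM of 3.65, 3.48 and 3.55 with HGF. In Control it was 1.74, 2.76 and 1.85, and Control library 2 stood closest to the HGF libraries. The log2 fold change was 0.84 ± 0.21, or 1.79-fold, with edgeR adjusted p = 0.0116. The overlapping antisense gene Gm12223 had at most 3 counts in any library.

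Csf1 (ENSMUSG00000014599, chromosome 3, 107741048 to 107760469, minus strand), the M-CSF gene, was the most abundant member, at the 94.2nd percentile of tested genes with HGF and the 94.1st in Control. Its FPKM was 51.7, 52.2 and 49.7 with HGF and 50.5, 50.3 and 48.5 in Control, and HGF library 3 lay below Control libraries 1 and 2. The log2 fold change of 0.14 ± 0.04 passed the test (edgeR adjusted p = 0.0169) but depended on the scaling. With library totals alone it was 0.04 (adjusted p = 0.428), and the call was also lost without HGF library 2 (0.13, adjusted p = 0.103) and without Control library 2 (0.14, adjusted p = 0.0607).

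In Control the order of mean FPKM was Csf1, Il6st, Lif, Lifr, Osmr, Clcf1, Csf3, Csf2, Il11 and Il6. The libraries of Osmr and Clcf1 overlapped, as did those of Clcf1 and Csf3, and the other neighbours did not. With HGF the order was Csf1, Lif, Il6st, Csf3, Clcf1, Csf2, Il11, Osmr, Lifr and Il6. Here Il11 overlapped Osmr, and Osmr overlapped Lifr. Lif and Il6st changed places, and Lifr went from rank 4 to rank 9.

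Beyond the members, 71 genes of 8 groups of partners, receptors, signalling proteins, targets and mRNA turnover factors were in the table and 62 were tested. Of these 27 rose, 12 fell and 23 did not pass the test, beside 19.1% higher and 19.3% lower of all tested genes. The count that fell was 4 without HGF library 2, 7 without Control library 1 and 7 without Control library 3.

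Oncostatin M itself, the ligand of OSMR, had between 4 and 15 counts in every library and was not tested. The alpha receptors moved in opposite directions. Il6ra, for IL-6, had an FPKM of 2.54, 2.53 and 2.58 with HGF and 1.37, 1.54 and 1.53 in Control and rose by 0.88 ± 0.07 on the log2 scale (edgeR adjusted p = 4.53e-05). Il11ra1, for IL-11, had an FPKM of 3.85, 3.97 and 4.15 with HGF and 6.54, 6.72 and 7.21 in Control, with a log2 fold change of -0.68 ± 0.07 (edgeR adjusted p = 1.53e-04). Both pairs of groups were apart. Cntfr, the CNTF alpha receptor gene, through which CLCF1 signals, had 0 counts in all HGF libraries and 6, 4 and 11 in Control, and was not tested.

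Il34, which encodes the second ligand of the M-CSF receptor, rose 2.64-fold, beside 1.10-fold for Csf1. Its FPKM was 11.5, 9.77 and 10.1 with HGF and 4.69, 3.71 and 4.22 in Control, with no overlap and a log2 fold change of 1.40 ± 0.11 (edgeR adjusted p = 3.00e-05). The ratio of Il34 to Csf1 within a library was 0.222, 0.187 and 0.203 with HGF and 0.0930, 0.0739 and 0.0871 in Control, so Csf1 remained the more abundant.

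Of 5 tested receptor genes of the colony-stimulating factors and related cytokines, 1 rose, 3 fell and 1 did not pass the test, and only the rise of Il3ra held without each single library. Csf1r, the M-CSF receptor gene, had an FPKM of 1.38, 1.35 and 1.44 with HGF and 1.04, 1.20 and 4.76 in Control. It did not pass the test with all libraries (-0.66 on the log2 scale, edgeR adjusted p = 0.346), and was higher with HGF without Control library 3 (0.41 ± 0.11, adjusted p = 0.0225). Csf2ra and Csf2rb, the GM-CSF receptor chains, and Csf2rb2, a copy of Csf2rb, were called lower with all libraries. The log2 fold changes were -2.09, -1.06 and -2.48 (edgeR adjusted p = 0.0237, 0.0418 and 0.0412). Each FPKM was under 1 in every library, and not all 15 alternatives tested these genes. The calls were lost in 6, 8 and 7 of those that did. All 3 were lost without Control library 3 (-1.18, -0.79 and -0.95, adjusted p = 0.102, 0.132 and 0.271) and without HGF library 2 (-1.80, -1.01 and -2.76, adjusted p = 0.0838, 0.118 and 0.0857). Csf2ra was also lost without HGF library 1 (-2.10, adjusted p = 0.0653). Csf2rb was lost without HGF library 3 (-0.83, adjusted p = 0.121) or Control library 2 (-1.11, adjusted p = 0.0803), and Csf2rb2 without HGF library 1 (-2.65, adjusted p = 0.0886) or HGF library 3 (-2.11, adjusted p = 0.124). Csf2rb and Csf2rb2 are near-identical copies whose counts may be split. Csf3r, the G-CSF receptor gene, had 0 counts in all HGF libraries and 0, 4 and 98 in Control, and was not tested. Il3ra rose by 0.44 ± 0.10 on the log2 scale (edgeR adjusted p = 0.00791), with an FPKM of 4.10 ± 0.0517 with HGF and 3.23 ± 0.319 in Control.

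Control library 3 also stood apart in markers of other cells. The summed FPKM of 12 macrophage markers was 126 there, against 47.8 and 53.0 in the other Control libraries and 74.0 to 79.3 with HGF. Few genes carried these sums. Cd68 was 46.4 to 49.5 with HGF and 26.5 to 29.0 in Control. Lyz2 was 64.9 in Control library 3 and 12.1 to 16.4 in the other 5 libraries. Adgre1, C1qa, C1qb and C1qc were 4.61, 3.38, 7.72 and 3.91 in Control library 3 and at most 0.310 in the other 5. Cd14 went the other way and was lowest there, at 6.57. Over all 6 libraries C1qc was called lower with HGF (-4.57 on the log2 scale, edgeR adjusted p = 0.0348). The summed FPKM of 5 skeletal muscle markers was 158 in Control library 3, against 1.99 to 3.57 in the other 5 libraries. The members kept their calls without it: Il11, Lif, Clcf1, Csf1, Csf2 and Csf3 were called higher and Il6st, Osmr and Lifr lower, with adjusted p from 1.23e-04 (Lif) to 0.0420 (Csf1), and 33.0% of tested genes were called. In bulk RNA, fewer cells of a type and less RNA per cell cannot be told apart.

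The labelled cell type was checked through 9 bile duct markers. Krt8, Krt18, Krt19 and Spp1 were abundant in all libraries, whereas Krt7 and Cftr were at or under 0.123 FPKM, so those defining markers were nearly absent. The summed FPKM of the list was 1406 to 1416 with HGF and 753 to 783 in Control. Fibroblast markers, which mark another source of Lif, Il11 and Csf1, summed to 15.4 to 18.5 with HGF and 6.53 to 7.13 in Control. Col1a1 alone made up 12.2 to 15.3 of the sums with HGF and 4.26 to 5.15 of those in Control. Of 5 tested, Col1a1, Col1a2 and Pdgfrb rose, and Pdgfra and Dcn did not pass the test. Dcn and Lum were at most 0.380 FPKM, a value Dcn reached in Control library 3, and Lum was at 0 in 3 libraries. Without Control library 3, Dcn was higher with HGF (2.22 on the log2 scale, edgeR adjusted p = 0.00297). So were the macrophage markers Adgre1 (1.92, adjusted p = 0.0157) and Mrc1 (2.30, adjusted p = 0.0151), on counts of 6 to 19 in Control libraries 1 and 2. Cd68 (0.94, adjusted p = 4.29e-05) and Cd14 (0.56, adjusted p = 0.00342) were higher too. C1qb (-0.56), C1qc (-1.35) and Ptprc (-0.22) had negative values and were not called. The endothelial marker Cdh5 (1.61, adjusted p = 0.0126) was higher, whereas Pecam1 (-0.03), Kdr (-0.11) and Vwf (-0.21) were not called. The adipocyte marker Fabp4 (1.51, adjusted p = 0.0319) was higher as well. Endothelial markers summed to at most 0.823, adipocyte markers to at most 0.342 and T cell markers to at most 0.0301. Neutrophil markers summed to 13.0 to 15.8 with HGF and 2.70 to 4.30 in Control, nearly all of it Ly6g, and S100a9 was at 0 in 3 libraries. The part of these marker differences in the members' changes was not tested.

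**Figure D2:**
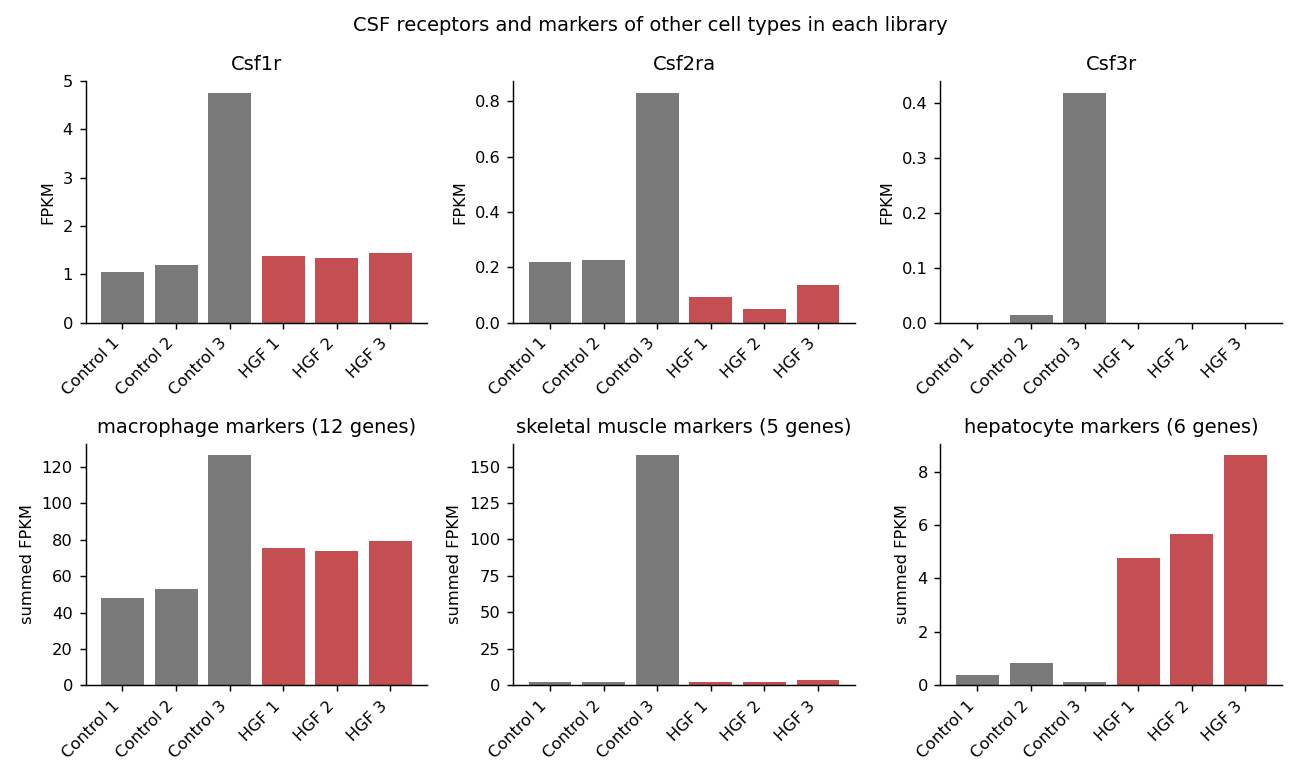
FPKM of 3 receptors of colony-stimulating factors and summed FPKM of 3 marker lists (y axes, from 0) in each library, as bars. Control library 3 is highest for the receptors, macrophage and skeletal muscle markers, and the HGF libraries are highest for hepatocyte markers.

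Within the signalling chain the changes were small and mixed. Of 8 JAK and STAT genes, 2 rose, 2 fell and 4 did not pass the test, beside 19.1% higher and 19.3% lower of all tested genes. Such a split is close to that background. Stat3, the main gp130 transducer, rose from 21.6 ± 1.82 to 25.4 ± 1.12 FPKM, 0.33 ± 0.06 on the log2 scale (edgeR adjusted p = 0.00270), and Stat5b rose by 0.31 (adjusted p = 0.0102). The Stat5b call was lost in the 3 limma settings on log2 FPKM (adjusted p = 0.0507, 0.0661 and 0.135). Tyk2, a JAK-family kinase, fell (-0.28, adjusted p = 0.0136), but the call was lost without HGF library 2 (-0.26), HGF library 3 (-0.23) or Control library 1 (-0.22). Ptpn11, a gp130-associated phosphatase, passed narrowly (-0.14, adjusted p = 0.0495) and lost its call in 7 of 15 alternatives, including without HGF library 2 (-0.13), HGF library 3 (-0.11), Control library 1 (-0.09) or Control library 2 (-0.16).

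Of 8 inhibitors of this pathway, 3 rose, 1 fell and 4 did not pass the test. Socs3, the feedback inhibitor that binds gp130, had an FPKM of 35.7, 35.2 and 32.6 with HGF and 29.3, 30.1 and 29.4 in Control, a log2 fold change of 0.32 ± 0.05 (edgeR adjusted p = 9.40e-04). Cish rose by 0.44 ± 0.09 (adjusted p = 0.00351) and the phosphatase gene Ptpn6 by 0.58 ± 0.07 (adjusted p = 2.20e-04). Pias3, which encodes an inhibitor of STAT3, fell from 22.6 ± 1.05 to 12.4 ± 0.381 FPKM, -0.77 ± 0.05 on the log2 scale (adjusted p = 1.82e-05).

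Of 22 tested genes known as gp130 or STAT3 targets, 13 rose, 3 fell and 6 did not pass the test. Among those that rose, 7 liver acute-phase genes were set apart after their values were seen (Saa1, Saa2, Fga, Fgb, Fgg, Hp and Orm1), at no more than 2.15 FPKM with HGF and 0.189 in Control. These 7 had 0 to 23 counts in Control and passed the filter on low counts only through the HGF libraries. They could therefore hardly be called lower, and their share of the 13 rises says little. Of 5 tested hepatocyte markers, Alb, Apoa1 and Apob rose, and Ttr and Cps1 did not pass the test (edgeR adjusted p = 0.0550 and 0.231). Alb, Apoa1 and Apob also needed the HGF libraries to pass the filter on low counts. The 6 markers in the table summed to 4.75 to 8.61 FPKM with HGF and 0.127 to 0.831 in Control, and Alb was 2.89, 3.32 and 6.26 against 0, 0.170 and 0.0775, while Cyp3a11 was at most 0.0339 in any library. Their part in the acute-phase values was not tested. The other 15 targets had a median log2 fold change of 0.28, with 6 higher and 3 lower. The 6 were Lcn2, Saa3, Ccl2, Timp1, Il4ra and Cebpd. The 3 were Mcl1, Icam1 and Lbp, and Lbp, itself a liver acute-phase gene, fell from 6.17 ± 0.339 to 4.55 ± 0.431 FPKM (-0.34 on the log2 scale, edgeR adjusted p = 0.0113). Icam1 (-0.65, adjusted p = 0.0471) was not tested in all 15 alternatives and lost its call in 8 of those that tested it. These include the fits without HGF library 1 (-0.60), HGF library 2 (-0.56), Control library 1 (-0.66) or Control library 2 (-0.56). Ccl2, a monocyte chemokine, was the largest of the abundant ones, with an FPKM of 108, 134 and 138 with HGF and 63.1, 71.4 and 63.7 in Control and a log2 fold change of 1.04 ± 0.09 (edgeR adjusted p = 6.08e-05). Timp1, a metalloproteinase inhibitor, rose by 0.81 ± 0.04 (adjusted p = 4.80e-06), and Lcn2 by 1.51 ± 0.20 (adjusted p = 4.70e-04). Cebpd rose by 0.36 (adjusted p = 0.0104) and lost its call without HGF library 2 (0.34, adjusted p = 0.0531).

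Of 9 genes for proteins that act on AU-rich mRNAs, 5 rose, 2 fell and 2 did not pass the test. Zfp36l2, which encodes a destabilising zinc-finger protein, had an FPKM of 55.9, 58.7 and 56.8 with HGF and 36.7, 35.0 and 35.0 in Control, a log2 fold change of 0.78 ± 0.04 (edgeR adjusted p = 4.69e-06). Zfp36l1, of the same family, rose by 0.40 ± 0.07 (adjusted p = 0.00182), and Hnrnpd, an AU-rich element binder, by 0.40 ± 0.06 (adjusted p = 7.25e-04). The other 4 calls (Elavl1, Khsrp, Rc3h1 and Arid5a) were each lost in 6 to 8 of 15 alternatives.

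**Figure D3:**
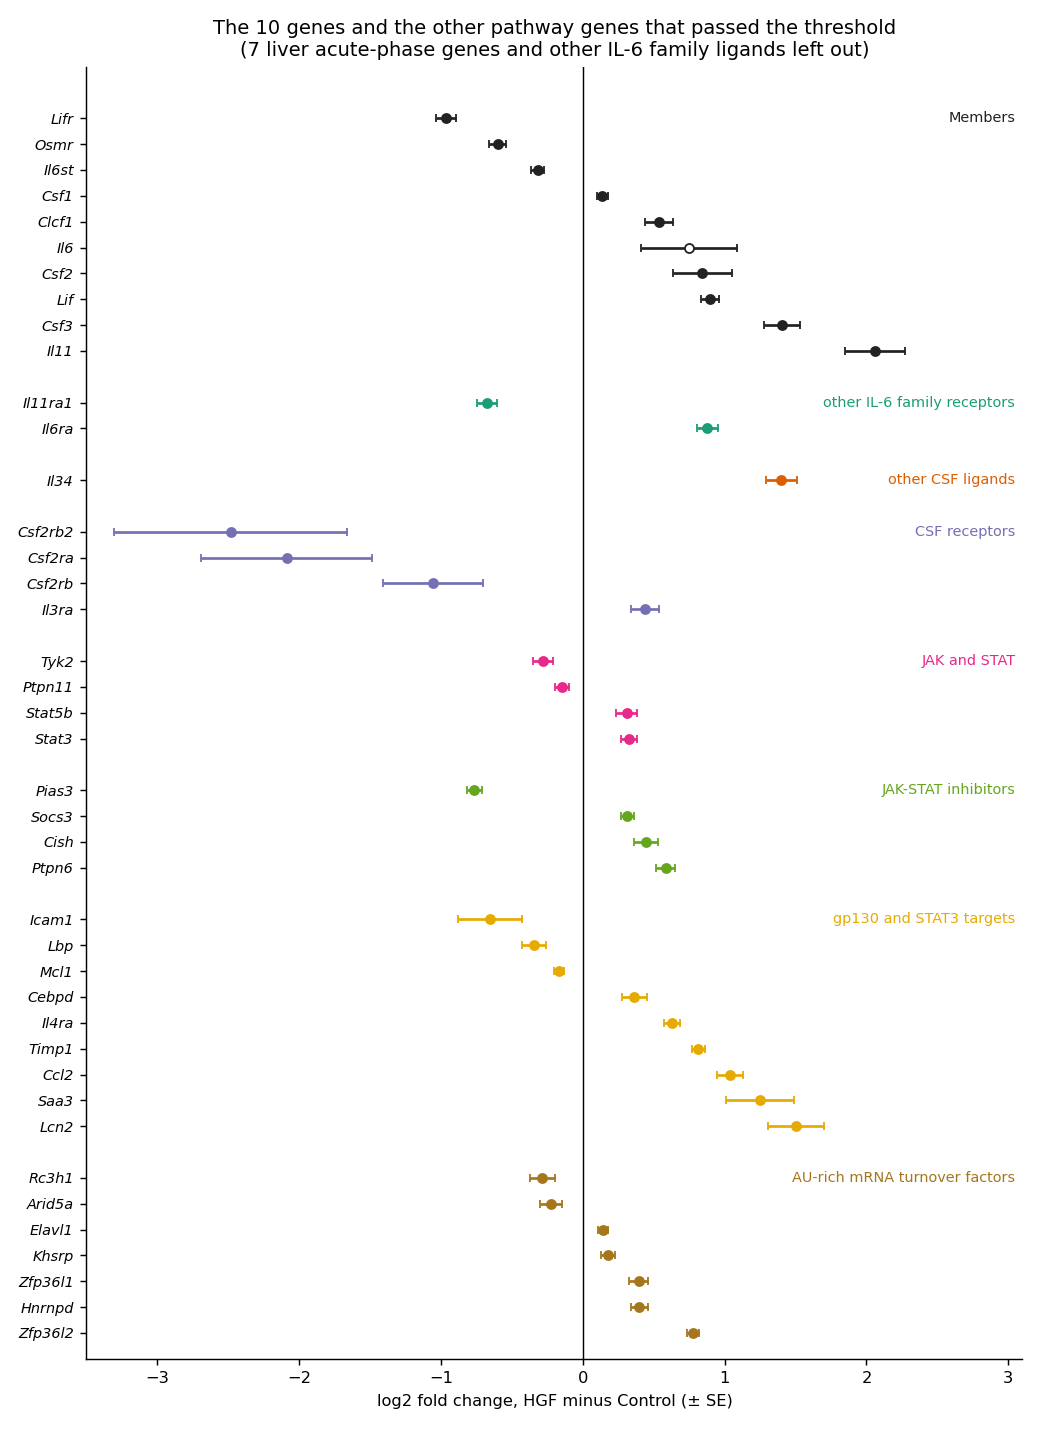
Log2 fold change (x axis, HGF minus Control, ± SE, n = 3 per group) of the 10 genes and of pathway genes past the threshold, grouped and coloured by list. Il6, the open point, did not pass the test, 7 liver acute-phase genes near 0 in Control were left off after their values were seen, and the list of other family ligands is not drawn.

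As a description, the tested gene with a mean FPKM of at least 1 whose log2 CPM (library-scaled counts) followed each member most closely over the 6 libraries was recorded. It was Fam129a for Il11 (Pearson r = 0.9997), Adamts4 for Lif (0.9994), Nadk for Csf3 (0.999), Rps2-ps6 for Clcf1 (0.994), Gm13430 for Csf2 (0.993), Heatr1 for Csf1 (0.998) and Met for Il6 (0.989). For the receptors it was BC005537 for Lifr (0.9993), Rraga for Osmr (0.999) and Fgf11 for Il6st (0.999). Between 22 genes (Il6) and 1498 genes (Lif) exceeded 0.95 among about 11616 compared, the libraries fall into the groups compared, and such values single out no gene.

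**Figure D4:**
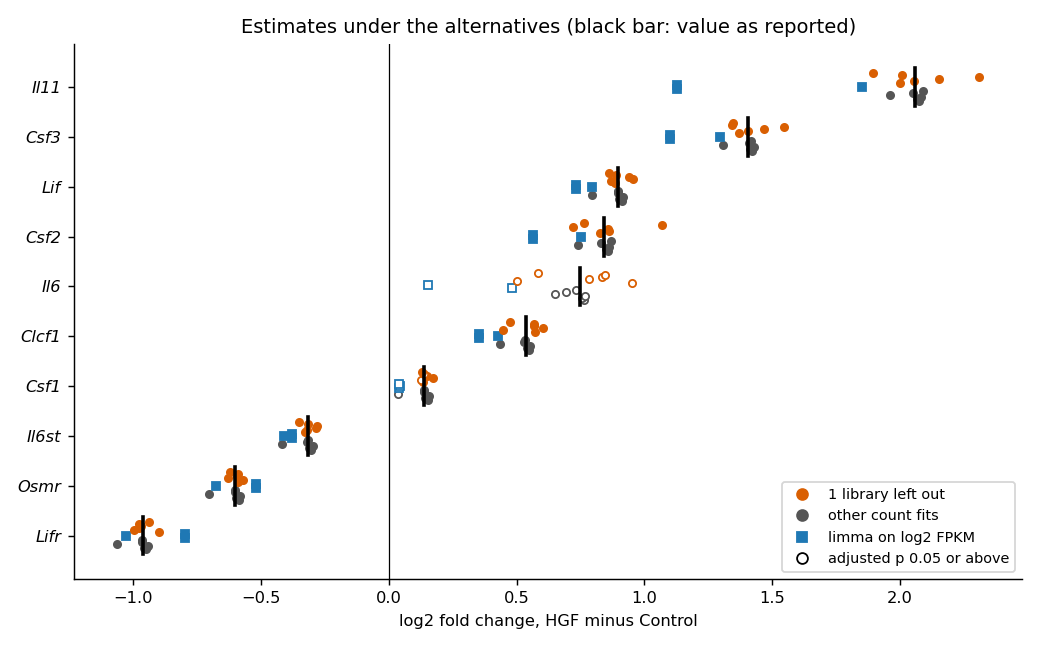
Log2 fold change (x axis, HGF minus Control) of the 10 genes under 15 alternative settings (14 for Il6), with the reported value as a black bar and open symbols for an adjusted p of 0.05 or above. Csf1 lost its call in 6 alternatives, Il6 had none in any, and the other 8 genes kept theirs.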

How the data were processed

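Poly(A) RNA of 6 LD-1 libraries was sequenced, per the labels' protocols. The deposited table holds whole-number counts per gene and FPKM, normalised by the authors for length and library size. StringTie 1.3.0, HISAT2 2.0 and Bowtie 0.12.2 are listed, with build mm8, per the submitters' processing notes, while 9 of the 10 members have the coordinates of GENCODE M21 (GRCm38). Coordinates are given as the table gives them. Use of strand in counting is not given in the sources used here. The extraction protocol also mentions adipose material. Groups came from sample titles.

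Totals were 57073866 to 66302502 counts per library. In each library 1018 to 1193 genes had a count of 4, and at most 562 had 3 or had 5, so a read pair may weigh about 4 counts and low counts are less precise than they look. Counts were tested with edgeR 4.0.16 (R 4.3.3): filterByExpr, TMM (factors 0.963 to 1.04), the quasi-likelihood test, two-sided, and Benjamini-Hochberg adjustment, and the script was tested on simulated data. Alternatives used DESeq2 1.42.0, limma 3.58.1 on log2(FPKM + 1) or log2(FPKM + 0.1), other scaling and filters, a replicate block and leaving out each library. Deviations of same-numbered libraries correlated at 0.059, -0.030 and 0.038, so no pairing by number was seen. These values cannot exclude one, and a replicate block called 6846 genes against 6665 without it. No library was a duplicate: between replicates chi-square over its degrees of freedom was 2.72 to 7.04 for counts divided by 4.

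Named genes were the 10 members, pathway genes past the threshold or needed as receptors, and the gene most alike each member. Members and lists were chosen with earlier results of these data known. Single genes of the lists that are not named are counted in the list totals but not reported here.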

Additional observations from a re-analysis of the deposited data

How the results depend on the processing

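Of the 10 members, Il11, Lif, Clcf1, Csf2, Csf3, Il6st, Osmr and Lifr kept direction and call in all 15 alternatives, Il6 stayed uncalled in the 14 that tested it, and Csf1 lost its call in 6. The values of Il11 and Csf2 were lowest with limma on log2(FPKM + 1), 1.13 and 0.56, a scale that understates low genes. Leaving out each library in turn gave 4893 to 6228 called genes, 5 to 6 members higher, 3 lower, 24 to 29 pathway genes higher and 4 to 10 lower. Pathway genes higher numbered 16 with limma on log2(FPKM + 1), and those lower 5 with no filter on low counts. The causes were not tested. Over the pathway genes called and the receptors of the colony-stimulating factors, a restriction chosen after the values were seen, 510 of 584 pairs of gene and alternative kept direction and call and 73 lost the call. Csf1r reversed to 0.41 without Control library 3, and its values without 1 library ran from -1.01 to 0.41. A replicate block gave 6846 called genes, 6 members higher and 3 lower, 28 pathway genes higher and 9 lower. Under it Csf2rb, Csf2rb2 and Icam1 lost their calls. Low counts limit Il6, Csf2 and the receptors of the colony-stimulating factors.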

Other observations

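The wider cytokine and signalling annotations of the deposited table, chosen after the values were seen, were counted without the 10 members. Of 149 tested genes under the cytokine-cytokine receptor interaction term, 39 (26.2%) rose and 17 (11.4%) fell, with a median log2 fold change of 0.08. Of 97 under the JAK-STAT term, 26 (26.8%) rose and 19 (19.6%) fell, with a median of 0.00. Over all tested genes 19.1% rose and 19.3% fell, so the share of the JAK-STAT term that fell is that of the background. The annotation cells of 6 genes were not used here, so both terms may lack genes.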
